A study of Homo sapiens with 12 samples.

Results

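The genes described here are the E2F transcription factors E2F1 to E2F8 and the retinoblastoma family proteins RB1 and RBL1, 10 of the 19973 genes in the deposited expression table, taken by their symbols. Their levels were followed in 12 RNA-seq libraries of human prostate cancer cells, 3 libraries in each of 4 groups. C4-2, a castration-resistant line descended from LNCaP, carried either a control lentivirus (lv-control) or a lentivirus expressing ARv7 (lv-ARv7). 22Rv-1, a line from a CWR22 xenograft that relapsed after castration and is known to make ARv7 itself, carried either a control hairpin (lv-shcontrol) or a hairpin against ARv7 (lv-shARv7). ARv7 is a receptor splice variant that lacks the ligand-binding domain and is active without hormone. All cells had been infected with lentivirus and selected with puromycin, and were grown in medium with serum. The 3 libraries of a group were triplicate dishes, and how many separately selected cultures stood behind a group is not given, so p-values measure only the spread between dishes.

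E2F proteins bind DNA mostly as dimers with a DP protein and set the transcription of genes for DNA replication and cell division. E2F1, E2F2 and E2F3 are the activators, held inactive by RB1 until cyclin-dependent kinases phosphorylate it, and E2F4 and E2F5 repress together with the RB1 relatives RBL1 (p107) and RBL2 (p130). E2F6 represses with polycomb-type complexes without pocket proteins, and the atypical members E2F7 and E2F8 bind DNA without a DP partner and repress E2F targets in later S phase. E2F1 and other members are themselves targets of E2F proteins, and loss of RB1 is a known event in advanced prostate cancer.

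In the table's GRCh38 coordinates the activators lie at chr20:33675477-33686385 (E2F1, minus strand), chr1:23506438-23531233 (E2F2, minus) and chr6:20401879-20493714 (E2F3, plus). E2F4 lies at chr16:67192155-67198918 (plus), E2F5 at chr8:85177154-85217158 (plus) and E2F6 at chr2:11444375-11466177 (minus). The atypical members lie at chr12:77021248-77065569 (E2F7, minus) and chr11:19224063-19241620 (E2F8, minus), and the pocket protein genes at chr13:48303744-48599436 (RB1, plus) and chr20:36996349-37095997 (RBL1, minus). Values are for whole genes and do not separate isoforms or start sites.

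Library totals ran from 12318529 to 14672948 counts. All 8 prostate epithelium markers had counts in every group, and the 4 leukocyte markers summed to at most 2.03 CPM in any library. CPM is a gene's read count scaled to library size, with sizes adjusted by TMM factors computed over all 12 libraries. C4-2 control replicate 3 stood apart from its group. The chi-square per degree of freedom between its counts and those of replicates 1 and 2 was 13 and 7.15, against 2.12 to 4.77 for all other replicate pairs. All 8 calls among the 10 genes in C4-2 held without it. Some measures moved with the groups: ribosomal protein genes took 9.29% to 10.71% of counts in C4-2 control libraries and 7.82% to 8.03% with ARv7, and 6.85% to 7.17% in shcontrol and 7.98% to 8.45% in shARv7 libraries. Mitochondrial genes took 4.07% to 4.66% in C4-2 control and 3.30% to 3.52% with ARv7, and 3.94% to 3.98% in shcontrol and 3.34% to 3.43% in shARv7 libraries. Of the 8 prostate epithelium markers, 4 were called higher and 3 lower in C4-2, and 5 higher and 2 lower in 22Rv-1. Over all genes tested, 29.6% were called higher and 29.5% lower in C4-2, and 23.9% and 24.1% in 22Rv-1. The 4 neuroendocrine markers summed to 35.7 to 43.0 CPM in shcontrol and 22.1 to 23.0 CPM in shARv7 libraries, and to 3.96 to 5.23 CPM in C4-2 control and 2.35 to 3.19 CPM with ARv7. The 4 fibroblast markers summed to 7.94 to 9.58 CPM in C4-2 control and to 15.2 to 17.4 CPM with ARv7, with PDGFRB 12.1-fold higher (edgeR adjusted p = 5.19e-07), and DCN at 0 counts in control and 3 with ARv7. PDGFRB had 14 counts in the control libraries and 180 with ARv7. In 22Rv-1 the sums of the fibroblast markers overlapped, at 18.8 to 20.4 CPM in shcontrol and 19.8 to 23.4 CPM in shARv7 libraries. DCN fell there from 100 to 7 counts (13.3-fold, edgeR adjusted p = 3.65e-09), while COL1A1 was 1.25-fold higher (edgeR adjusted p = 0.0094). PDGFRB in C4-2 and DCN in 22Rv-1 passed the filter on low counts only through the group where they are high. Their values are thus a description. The 3 endothelium markers stood at 3.50 to 4.08 CPM and 7.60 to 9.02 CPM in the same C4-2 groups, nearly all of it VWF (2.29-fold, edgeR adjusted p = 1.72e-05), while CDH5 had 0 and 1 counts and PECAM1 6 and 0. The endothelium sum was at most 1.09 CPM in 22Rv-1. The part of all these measures in the results was not tested.

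Short stretches upstream of the transcription starts are shown first, because 4 of the members hold at least 2 matches there to the E2F octamers searched. These octamers were chosen with the windows already seen. The sequences are the 100 bases before the start, 5′ to 3′ on the gene's strand, from the RefSeq promoter table (GRCh38.p14), in lower case with matches to E2F octamers in capitals. The octamers searched, on both strands, were TTTGGCGC, TTTCGCGC, TTTCCCGC, TTTGCCGC, TTTCGCGG and TTTGGCGG. E2F1, E2F2, E2F3 and RBL1 are the members with matches, and E2F7 is set beside them as a gene with none whose level also rose in C4-2. The stretches lie at chr20:33686386-33686485 (E2F1, minus strand), chr1:23531234-23531333 (E2F2, minus), chr6:20401779-20401878 (E2F3, plus, upstream start), chr20:37095998-37096097 (RBL1, minus) and chr12:77065570-77065669 (E2F7, minus).
E2F1: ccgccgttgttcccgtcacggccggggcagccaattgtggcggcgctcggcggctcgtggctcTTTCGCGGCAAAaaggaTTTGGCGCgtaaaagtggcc
E2F2: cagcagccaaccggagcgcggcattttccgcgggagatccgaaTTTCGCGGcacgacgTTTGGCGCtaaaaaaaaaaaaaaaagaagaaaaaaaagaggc
E2F3: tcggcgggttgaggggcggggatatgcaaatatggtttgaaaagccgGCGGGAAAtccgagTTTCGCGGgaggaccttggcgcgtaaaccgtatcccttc
RBL1: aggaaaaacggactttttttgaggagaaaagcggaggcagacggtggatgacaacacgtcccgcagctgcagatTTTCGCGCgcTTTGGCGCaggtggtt
E2F7: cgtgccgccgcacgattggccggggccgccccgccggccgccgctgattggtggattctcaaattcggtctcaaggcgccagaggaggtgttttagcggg

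The E2F1 stretch held 3 matches, of which those at -37 to -30 and -33 to -26 overlapped on opposite strands and the other lay at -20 to -13. E2F2 had matches at -57 to -50 and -42 to -35, E2F3 at -53 to -46 and -39 to -32, and RBL1 at -26 to -19 and -16 to -9. In the full table windows, 250 bases before to 50 after the start, these 4 genes each held at least 2 matches. Among all 34796 different windows of the table, 4.29% held at least 1 match and 0.23% at least 2. E2F4, E2F6, E2F7 and a second E2F3 start 1735 bases downstream held none, which says only that these letters are not in those windows. A match describes letters and is neither a bound site nor a cause. The octamers were chosen with the windows already seen, so the share of windows with at least 2 is no test of these genes. E2F2 and E2F3 reached 2 matches only with TTTCGCGG, which E2F1 also held. E2F5 and E2F8 had no entry in the table, and the entry for RB1 lies inside the gene and was not used.

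**Figure D1:**
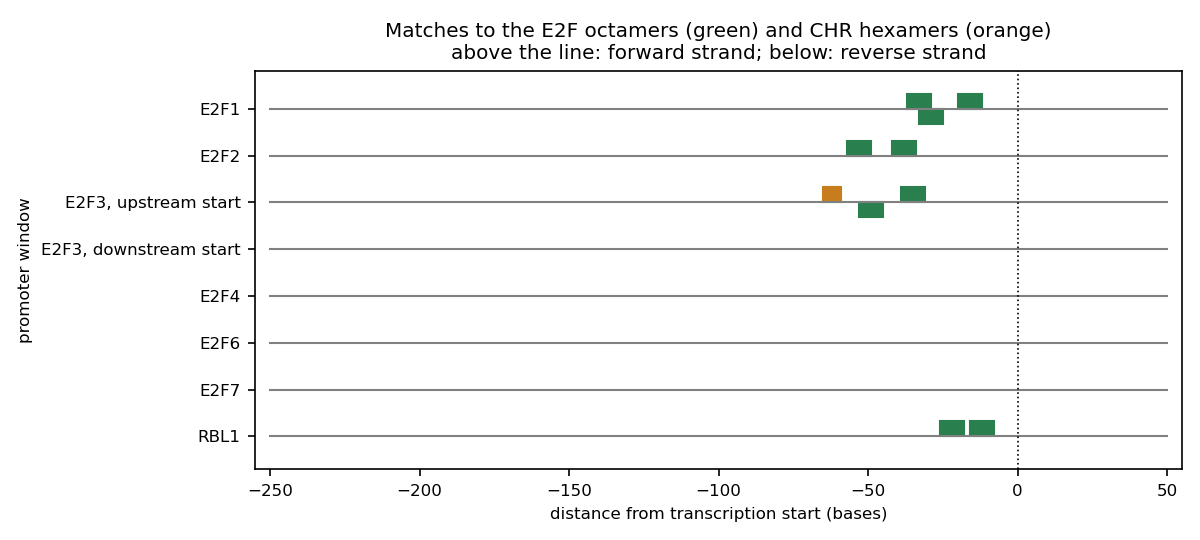
Positions of E2F octamer matches (green) and of the hexamers TTTGAA and TTTAAA, known as CHR elements (orange), in the RefSeq promoter windows of the members; the horizontal axis is the distance from the transcription start in bases, forward-strand matches are above each line and reverse-strand matches below. All E2F matches lie between -57 and -9, in E2F1, E2F2, the upstream start of E2F3 and RBL1, and the one CHR hexamer lies in E2F3.

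With ARv7 in C4-2 cells, all 3 activators, both atypical repressors and RBL1 were higher, E2F4 and E2F6 were lower, and no change was called for E2F5 or RB1. The test was edgeR's quasi-likelihood test within the line, with Benjamini-Hochberg adjustment over 12783 genes and a threshold of 0.05. It called 59.1% of all genes tested, 29.6% higher and 29.5% lower, so a call in itself sets no member apart. Of the 10 members, 6 were called higher and 2 lower. E2F2, E2F7 and E2F8 passed the filter on low counts only through the ARv7 group, where they are high, so the count of members is a description. With total counts in place of TMM factors the median log2 fold change of all genes moved from 0.005 to 0.152 and the share of calls that were higher from 50% to 67.2%.

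Among the activators, E2F1, the member best known for both proliferation and cell death targets, stood at 12.6, 15.4 and 14.1 CPM in control cells and at 48.2, 48.2 and 47.5 CPM with ARv7. The ARv7 libraries lay close together and far above every control library. The change was 1.76 on the log2 scale (SE 0.10, 95% interval 1.56 to 1.97), 3.40-fold, with an edgeR adjusted p of 5.84e-12. E2F2 was close to the floor in control cells, with 6, 4 and 9 read counts against 129, 104 and 90 with ARv7. Every ARv7 library was far above every control library. The ratio of E2F2 per total counts was 18.2 (exact 95% counting interval 11.4 to 30.6), and edgeR gave a log2 fold change of 4.0 (SE 0.30, adjusted p = 1e-09). E2F3 was already well expressed in control cells and had the smallest fold change of the 3 activators. It stood at 47.0, 43.2 and 40.7 CPM in control cells and at 58.0, 54.9 and 59.9 CPM with ARv7. The groups did not overlap, and E2F3 was 1.31-fold higher (log2 0.39, SE 0.08, edgeR adjusted p = 0.000353). Tested against a fold of 1.2 in place of no change, its edgeR adjusted p was 0.0546.

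The atypical repressors had the largest fold changes of the 10 genes. E2F7 had 5, 3 and 7 counts in the control libraries and 205, 212 and 154 with ARv7. All control libraries were thus close to 0 and all ARv7 libraries well above them. The ratio of E2F7 per total counts was 40.7 (24.5 to 73.2), with an edgeR log2 fold change of 5.16 (SE 0.27, adjusted p = 2.79e-12). E2F8 had 0, 0 and 4 counts in control cells and 65, 68 and 44 with ARv7. Its only control counts came from replicate 3, the library that stood apart. The ratio of E2F8 per total counts was 47.3, with a wide interval of 18.1 to 175, and the edgeR log2 fold change was 5.28 (SE 0.55, adjusted p = 1.04e-07). Without that library the control group had 0 counts of E2F8. A floor of 3 counts there put E2F8 42.2-fold higher with ARv7. That is no strict bound, because error in the ARv7 counts is left out. Without control replicate 3, E2F7 and E2F2 had log2 fold changes of 5.50 and 4.36. The intervals cover counting error only, and the floor only that of the control group.

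Of the other repressors, E2F6 and E2F4 fell. E2F6, which works with polycomb-type complexes, stood at 59.6, 58.8 and 51.2 CPM in control cells and at 33.8, 35.9 and 35.5 CPM with ARv7. The groups did not overlap, and E2F6 fell by 0.70 on the log2 scale (SE 0.08, 1.63-fold, edgeR adjusted p = 5.83e-07). E2F4 stood at 86.8, 89.1 and 93.9 CPM against 84.0, 76.0 and 77.6 CPM with ARv7, a small step without overlap. Its log2 fold change was -0.19 (SE 0.07, edgeR adjusted p = 0.0194). It was not called with total counts in place of TMM factors (log2 -0.05, edgeR adjusted p = 0.569), nor without ARv7 replicate 2 (edgeR adjusted p = 0.107) or ARv7 replicate 3 (edgeR adjusted p = 0.0747). E2F5, which like E2F4 depends on pocket proteins, stood at 12.9, 13.6 and 11.8 CPM in control cells and 12.5, 13.0 and 9.76 CPM with ARv7. The groups overlapped, and the 95% interval of the log2 fold change ran from -0.42 to 0.17 (edgeR adjusted p = 0.476).

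Of the pocket proteins, RBL1 rose and RB1 was not called. RB1, the founding tumour suppressor of the family, stood at 82.4, 82.4 and 74.7 CPM in control cells and at 77.8, 82.7 and 78.0 CPM with ARv7. The groups overlapped, and the interval of the log2 fold change was -0.16 to 0.13 (edgeR adjusted p = 0.842). RBL1 stood at 9.47, 11 and 11.2 CPM in control cells and at 27.9, 23.9 and 29.3 CPM with ARv7. The lowest ARv7 library was well above the highest control library, and the change was 2.54-fold (log2 1.35, SE 0.12, edgeR adjusted p = 1.35e-08). RBL2, the pocket protein outside the 10 genes, had a mean of 88.5 CPM in control cells and 97.9 CPM with ARv7 and was not called (log2 0.14, edgeR adjusted p = 0.0765).

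**Figure D2:**
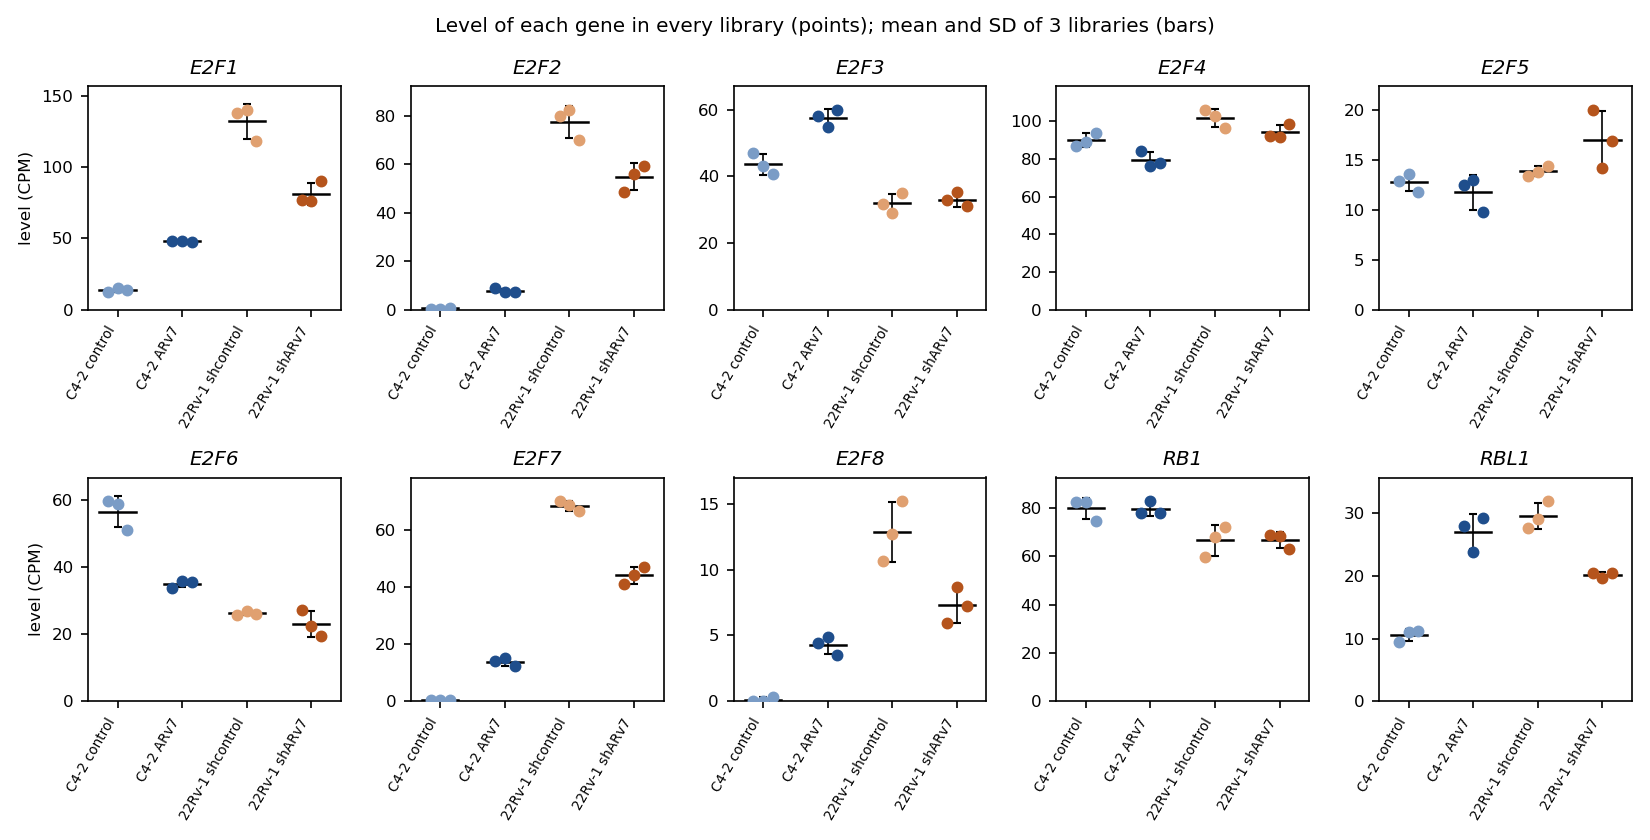
Level in CPM (vertical axis, linear and starting at 0) of each of the 10 genes in every library (points) of the 4 groups (horizontal axis), with the mean and SD of the 3 libraries as bars. E2F1, E2F2, E2F7 and E2F8 run in the order C4-2 control, C4-2 ARv7, 22Rv-1 shARv7, 22Rv-1 shcontrol from lowest to highest, while RB1 spans 59.6 to 82.7 CPM over all libraries.

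In 22Rv-1 cells with the hairpin against ARv7, E2F1, E2F2, E2F7, E2F8 and RBL1 were lower, E2F5 was higher by a small margin, and no change was called for E2F3, E2F4, E2F6 or RB1. The fold changes of the 5 lower genes lay between 1.41 and 1.76. The same edgeR test called 48% of 13459 genes, 23.9% higher and 24.1% lower, against 1 higher and 5 lower of the 10 members.

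E2F1 stood at 138, 140 and 118 CPM in shcontrol cells and at 76.9, 76.5 and 90.0 CPM in shARv7 cells. The groups were separate, and E2F1 fell by 0.69 on the log2 scale (SE 0.06, 1.62-fold, edgeR adjusted p = 5.99e-16). E2F2 stood at 80.0, 82.3 and 69.8 CPM against 48.6, 56.1 and 59.4 CPM after depletion. It fell by 0.49 without overlap of the groups (SE 0.07, 1.41-fold, edgeR adjusted p = 1.24e-08). E2F3 stood at 31.7, 29.1 and 34.9 CPM in shcontrol and at 32.9, 35.2 and 31.0 CPM in shARv7 cells. These ranges overlapped, with a log2 interval of -0.12 to 0.23 (edgeR adjusted p = 0.661).

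E2F7 stood at 69.9, 68.6 and 66.5 CPM in shcontrol cells and at 41.0, 44.2 and 47.0 CPM in shARv7 cells. It fell by 0.63 on the log2 scale, with separate groups (SE 0.07, 1.54-fold, edgeR adjusted p = 6.9e-12). E2F8, the least abundant of the falling genes, stood at 10.7, 12.7 and 15.2 CPM against 5.95, 8.66 and 7.27 CPM. Its groups were also separate, and it fell by 0.81 (SE 0.15, 1.76-fold, edgeR adjusted p = 4.24e-06). RBL1 stood at 27.7, 29.1 and 31.9 CPM in shcontrol and at 20.4, 19.6 and 20.5 CPM in shARv7 cells. Its groups did not meet, and RBL1 fell by 0.55 (SE 0.10, 1.46-fold, edgeR adjusted p = 1.51e-06).

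E2F5 was the member called higher in shARv7 cells, at 20, 14.2 and 16.9 CPM against 13.4, 13.8 and 14.4 CPM in shcontrol. The lowest shARv7 library lay inside the shcontrol range. The log2 fold change was 0.30 (SE 0.12, 1.23-fold, edgeR adjusted p = 0.034), and the call was lost with DESeq2 (adjusted p = 0.085) and in 1 edgeR fit of all libraries (adjusted p = 0.0702). It was also lost in edgeR without shcontrol replicate 1 (adjusted p = 0.0971), shcontrol replicate 2 (0.0649), shARv7 replicate 3 (0.0721) or shARv7 replicate 1 (log2 0.17, adjusted p = 0.323). The E2F5 locus overlaps C8orf59 on the opposite strand, a gene with 58 to 460 counts per library, and the counting strand is not given, so reads of the overlap cannot be assigned.

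E2F6 stood at 25.7, 26.8 and 26.1 CPM in shcontrol and at 27.1, 22.4 and 19.4 CPM in shARv7 cells. It was not called (log2 -0.19, interval -0.39 to 0.01, edgeR adjusted p = 0.119). Without shARv7 replicate 1, which lay above the shcontrol range, it was called lower (log2 -0.32, edgeR adjusted p = 0.0123). E2F4 stood at 106, 103 and 96.5 CPM in shcontrol and 92.4, 91.4 and 98.6 CPM in shARv7 cells, with overlap. It was not called (log2 -0.11, edgeR adjusted p = 0.128), but was without shcontrol replicate 3 (log2 -0.15, edgeR adjusted p = 0.023).

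RB1 stood at 59.6, 68.1 and 72.2 CPM in shcontrol cells and at 68.9, 68.6 and 62.9 CPM in shARv7 cells. The shARv7 range lay inside the shcontrol range, and the log2 interval was -0.13 to 0.15 (edgeR adjusted p = 0.942). RB1 shares its locus with LPAR6 and RCBTB2 on the opposite strand, which had 1 to 13 and 23 to 136 counts per library against 869 to 1160 for RB1. RBL2 was called higher, from a mean of 172 CPM to 215 CPM (log2 0.33, edgeR adjusted p = 8.43e-08), while RBL1 fell.

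**Figure D3:**
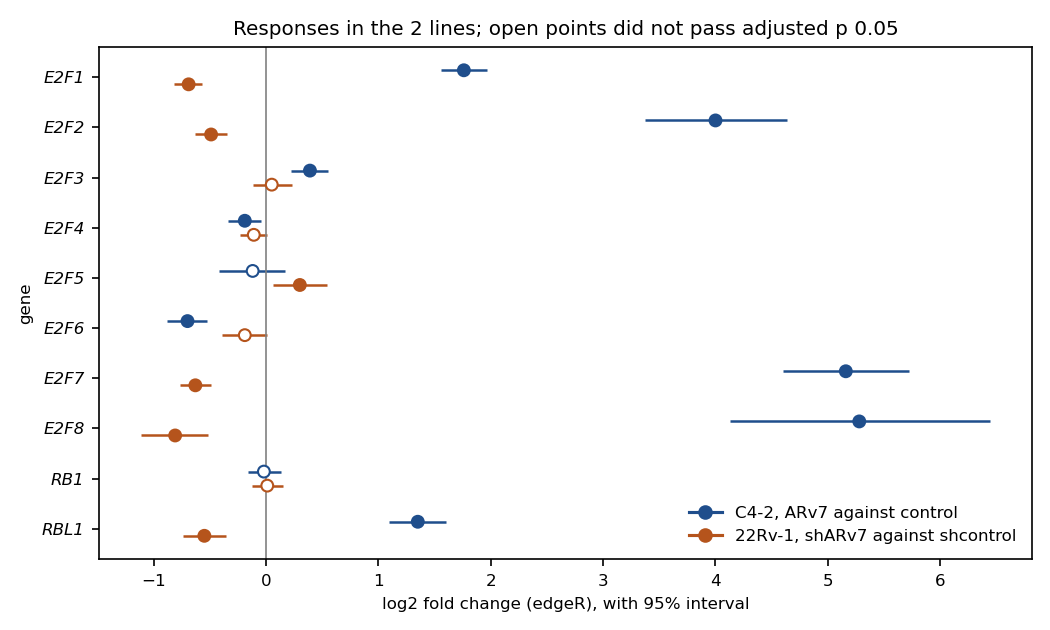
Log2 fold change from edgeR (horizontal axis) with its 95% interval for each of the 10 genes, ARv7 against control in C4-2 (blue) and shARv7 against shcontrol in 22Rv-1 (orange); open points did not pass an adjusted p of 0.05. E2F1, E2F2, E2F7, E2F8 and RBL1 lie to the right of 0 in C4-2 and to the left in 22Rv-1, and both RB1 points lie next to 0.

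Whether a gene's response differed between the lines was tested in 1 fit of all 12 libraries, with each response taken as more minus less ARv7. The C4-2 response exceeded the 22Rv-1 response for E2F1, E2F2, E2F3, E2F7, E2F8 and RBL1, and lay below it for E2F4 and E2F6. The contrast called 50.7% of 14235 genes, 27.4% higher and 23.3% lower, against 6 higher and 2 lower of the members. E2F2, E2F7 and E2F8 had 19, 15 and 4 counts in the C4-2 control libraries and passed the filter through the other groups, so their part of this count is a description, and of the other 7 members 5 were called. E2F7 differed by 4.54 on the log2 scale (SE 0.26, edgeR adjusted p = 2.8e-17) and E2F8 by 4.48 (SE 0.58, edgeR adjusted p = 4.42e-08). The E2F8 value rests on 4 counts of 1 C4-2 control library, replicate 3: without it the control group is at 0 and the fitted difference was 8.08, which is no bound, and with any other library left out it was 3.92 to 4.62. E2F2 differed by 3.52 (SE 0.28, edgeR adjusted p = 4.61e-13) and E2F1 by 1.08 (SE 0.12, edgeR adjusted p = 1.82e-09). By limma on log2(FPKM + 1), where the added 1 exceeds their control levels, the differences of E2F2, E2F7 and E2F8 were 0.76, 1.08 and 0.45. RBL1 differed by 0.80 and E2F3 by 0.45 (edgeR adjusted p = 3.97e-05 and 0.00216). E2F6 differed by -0.88 and E2F4 by -0.30 (edgeR adjusted p = 1.28e-06 and 0.00658), the latter not called with total counts (-0.11, edgeR adjusted p = 0.324). For E2F5 the interval of the difference was -0.21 to 0.57 and for RB1 -0.21 to 0.20, and neither was called. With total counts in place of TMM factors the median of this contrast over all genes moved from 0.062 to 0.248 and the share of calls that were higher from 54% to 72%. Expressing and depleting ARv7 also differ in vector and in starting level, and these cannot be told apart from the line.

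For several members the log2 difference between the control cells of the lines was wider than either response. These cells also carry different control vectors, lv-control and lv-shcontrol, so line and vector cannot be told apart in these values. E2F1 had a mean of 14 ± 1.41 CPM (SD, n = 3) in C4-2 control and 132 ± 11.9 CPM in 22Rv-1 shcontrol cells. That is 9.4-fold (log2 3.23, edgeR adjusted p = 2.33e-28), with every 22Rv-1 library above every C4-2 library. E2F2 had 0.477 ± 0.205 against 77.4 ± 6.63 CPM and E2F7 0.376 ± 0.162 against 68.3 ± 1.73 CPM, with log2 differences of 7.33 and 7.48 (edgeR adjusted p = 2.33e-30 and 9.83e-31). These differences rest on 19 and 15 counts in all of the C4-2 control libraries. E2F8 had 0.104 ± 0.179 against 12.9 ± 2.24 CPM, a difference that rests on 4 C4-2 control counts (edgeR adjusted p = 3.72e-18). RBL1 was 2.81-fold higher in 22Rv-1 shcontrol (edgeR adjusted p = 9.04e-15), at 29.6 ± 2.16 against 10.5 ± 0.940 CPM.

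Other members were lower in 22Rv-1 or nearly level. E2F6 had 56.5 ± 4.64 CPM in C4-2 control and 26.2 ± 0.546 CPM in 22Rv-1 shcontrol cells (log2 -1.11, edgeR adjusted p = 2.07e-13), and E2F3 had 43.6 ± 3.19 and 31.9 ± 2.93 CPM (log2 -0.45, edgeR adjusted p = 1.14e-05). The log2 difference of RB1 was -0.26 (edgeR adjusted p = 0.00122), and with total counts it was not called (-0.11, edgeR adjusted p = 0.159). E2F4 was slightly higher in 22Rv-1 (log2 0.18, edgeR adjusted p = 0.0103), a call lost without shcontrol replicate 1 (edgeR adjusted p = 0.0646). E2F5 was not called (log2 0.12, interval -0.16 to 0.40). In all, 6 members were called higher and 3 lower in 22Rv-1, where the test called 83.4% of genes, 42.5% higher and 40.9% lower. E2F2, E2F7 and E2F8 are among those higher and passed the filter on low counts through other groups than C4-2 control. The count of members is thus a description.

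Ordered by mean level, E2F1, E2F2, E2F7 and E2F8 gave the same sequence of groups: 22Rv-1 shcontrol, 22Rv-1 shARv7, C4-2 ARv7 and C4-2 control, with no overlap between neighbours. The ARv7-expressing C4-2 cells thus lay below the ARv7-depleted 22Rv-1 cells, which carry another vector, for these genes. E2F1 stood at 48.0 ± 0.420 against 81.1 ± 7.71 CPM in these groups. E2F2 stood at 7.78 ± 0.840 against 54.7 ± 5.52 CPM, a 7.03-fold gap. For RBL1 the order was another: its C4-2 ARv7 libraries (27.0 ± 2.81 CPM) overlapped the shcontrol libraries and lay above the shARv7 libraries (20.2 ± 0.497 CPM). E2F3 was highest in C4-2 ARv7 cells and E2F6 in C4-2 control cells, and for both the 22Rv-1 groups were the lowest and overlapped each other. For E2F5 every pair of neighbouring groups overlapped.

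How the E2F transcripts were shared between classes was compared on FPKM, counts scaled to gene length and library total, so that different genes can be set side by side. The activators E2F1 to E2F3 made up 25.0% ± 0.499 (SD, n = 3) of the summed FPKM of E2F1 to E2F8 in C4-2 control cells and 45.9% ± 0.769 with ARv7. The share of E2F4 and E2F5 went from 49.5% ± 2.16 to 36.2% ± 1.17, and that of E2F6 from 25.3% ± 1.80 to 13.0% ± 0.673. E2F7 and E2F8 went from 0.156% ± 0.126 to 4.86% ± 0.574. In 22Rv-1 cells the activators had 57.6% ± 1.37 in shcontrol and 51.7% ± 1.56 in shARv7 libraries, E2F4 and E2F5 25.5% ± 0.464 and 32.3% ± 0.830, and E2F7 and E2F8 11.6% ± 0.806 and 9.74% ± 0.637. The E2F6 share was 5.36% ± 0.274 and 6.31% ± 1.28. The summed level itself was 50.4 ± 1.97, 66.8 ± 1.23, 123 ± 5.81 and 95 ± 4.35 FPKM in C4-2 control, C4-2 ARv7, shcontrol and shARv7 libraries. Within each line the groups were separate for every class but E2F6 in 22Rv-1, where the exact two-sided permutation p was 0.4. For the others it was 0.1, the smallest that 3 against 3 libraries allow, so no share could pass 0.05.

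**Figure D4:**
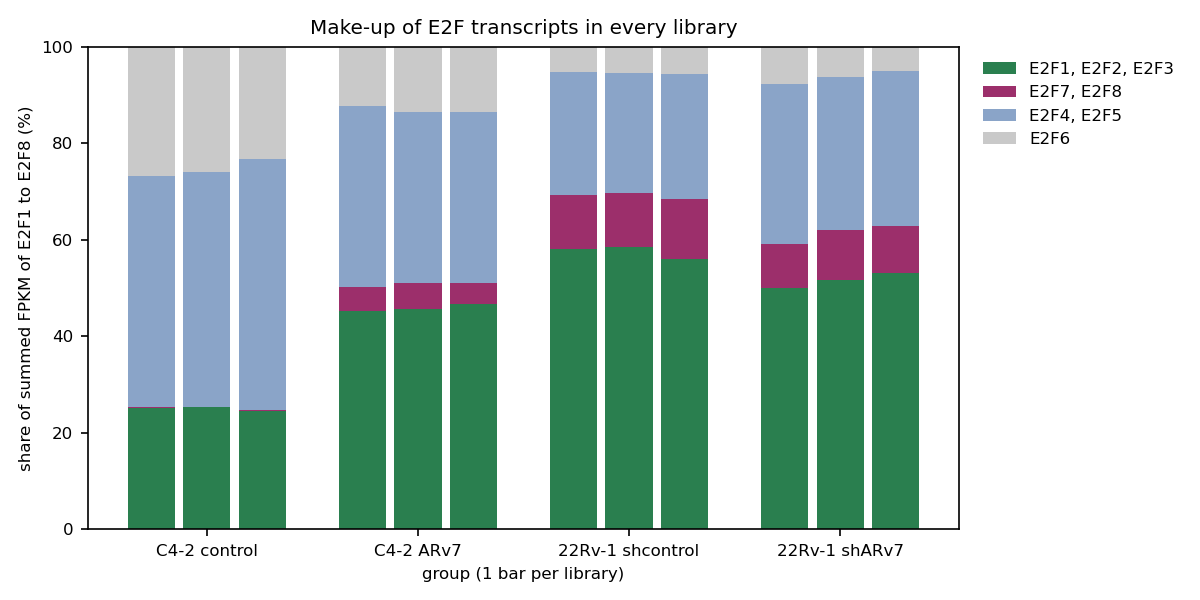
Share in percent of the summed FPKM of E2F1 to E2F8 (vertical axis, 0 to 100) held by the activators (green), E2F7 and E2F8 (purple), E2F4 and E2F5 (blue) and E2F6 (grey), with 1 bar per library grouped by condition. The mean activator share is 25.0% and 45.9% in the C4-2 groups and 57.6% and 51.7% in the 22Rv-1 groups.

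By FPKM, E2F4 was the most abundant E2F in C4-2 control cells (23.0 ± 0.270 FPKM), ahead of E2F6 (12.8 ± 1.38), E2F3 (7.74 ± 0.776) and E2F1 (4.79 ± 0.456). With ARv7, E2F4 (22.2 ± 1.17) was followed by E2F1 (18.0 ± 0.0767), whose libraries were all above those of E2F3 (11.2 ± 0.538). In 22Rv-1 shcontrol cells E2F1 led at 50 ± 4.35 FPKM, above E2F4 at 28.9 ± 1.27, E2F2 at 14.4 ± 1.19 and E2F7 at 11.1 ± 0.244. After depletion E2F1 (31.8 ± 3.07) was still above E2F4 (27.6 ± 1.17) in every library. RB1 lay between 10.3 and 12.9 FPKM in all but 1 of the libraries, the exception being shcontrol replicate 1 at 9.41 FPKM. RBL1 was below RB1 in every group, at 1.63 ± 0.112, 4.58 ± 0.493, 5.06 ± 0.387 and 3.57 ± 0.0803 FPKM in C4-2 control, C4-2 ARv7, shcontrol and shARv7 cells.

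The genes that E2F proteins are known to act on or with were described by lists. The lists overlap, so their counts are not independent. HDAC1 and HDAC2 stand among both the E2F6 complex genes and the RB1 corepressors. CCNE1 and CCNE2 stand among the cyclins and the G1/S targets, and CCNA2 among the cyclins and the G2/M genes. The background is the 59.1% of all genes called in C4-2 (29.6% higher, 29.5% lower) and the 48% called in 22Rv-1 (23.9% higher, 24.1% lower). Of 29 E2F targets of the G1/S transition, 25 were called higher, 1 lower and 3 not called in C4-2 with ARv7, with a median log2 fold change of 1.21 against 0.005 over all genes tested. Among them, CDC45 and UHRF1 had 24 and 39 counts in the C4-2 control libraries. They passed the filter on low counts only through the ARv7 group, where they are high. The C4-2 count and median of this list are thus a description. In 22Rv-1 shARv7 cells, 26 of the 29 were lower and 3 not called, with a median of -0.52 against 0.009. RRM2, which makes deoxyribonucleotides for replication, was 18.4-fold higher in C4-2 (edgeR adjusted p = 8.56e-18). CDC6, a replication licensing factor, rose 10.1-fold and the helicase subunit MCM4 4.46-fold (edgeR adjusted p = 6.39e-15 and 1.32e-14). Thymidine kinase TK1 was the member called lower (log2 -0.27, edgeR adjusted p = 0.00162). MCM5, MCM4 and MCM3, subunits of the same helicase, fell in 22Rv-1 by 0.86, 0.66 and 0.73 on the log2 scale (edgeR adjusted p = 2.28e-23, 4.3e-23 and 1.59e-20).

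All 16 of 16 G2/M genes bound by MuvB were called higher in C4-2 (median log2 3.42), and in 22Rv-1 13 were lower and 3 not called (median -0.32). AURKB and CENPE had 15 and 31 counts in the C4-2 control libraries and passed the filter on low counts only through the ARv7 group. The C4-2 count and median of these genes are thus a description. MuvB is a complex that represses with p130 and E2F4 in resting cells and activates with MYBL2 and FOXM1 in dividing cells. TOP2A, a topoisomerase of mitotic chromosomes, rose 48.8-fold and the kinetochore protein CENPF 14.5-fold (edgeR adjusted p = 8.96e-17 and 1.57e-15). MKI67, a marker of cycling cells, stood at 6.26, 6.71 and 4.97 CPM in C4-2 control and at 78.4, 78.2 and 78.6 CPM with ARv7. It stood at 214, 224 and 231 CPM in shcontrol and at 145, 154 and 147 CPM in shARv7 cells. Its groups run in the same order as those of E2F1, E2F2, E2F7 and E2F8. In these bulk libraries a larger share of cycling cells and more RNA per cell cannot be told apart, and the part of cycling cells in the changes of the E2F genes was not tested.

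MuvB itself and its partners held 7 genes, 5 higher and 2 not called in C4-2 and all 7 lower in 22Rv-1. With 52 counts in the C4-2 control libraries, MYBL2 passed the filter on low counts only through the ARv7 group. The C4-2 count of this list and the C4-2 value of MYBL2 are thus a description. MYBL2, a MYB family activator, was 33.2-fold higher in C4-2 (edgeR adjusted p = 8.9e-14) and 1.88-fold lower in 22Rv-1 (edgeR adjusted p = 2.6e-20). The forkhead factor FOXM1 was 9.19-fold higher and 1.63-fold lower (edgeR adjusted p = 3.47e-13 and 4.91e-17). LIN9, a core subunit, rose 3.21-fold in C4-2 (edgeR adjusted p = 2.47e-08).

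The promoter windows of the target lists differed in the letters they held. An E2F octamer was found in 17 of the 24 G1/S genes with a window (70.83%) and in 2 of the 13 G2/M genes (15.38%). A CHR hexamer was found in 5 of 24 (20.83%) and 10 of 13 (76.92%), against 24.01% of all windows. A listed gene counted if any of its windows held a match, while the share over all windows is per window. Among the members, E2F3 was the gene with a CHR hexamer, at -65 to -60. These shares describe the windows, and the lists hold genes known as targets of these factors.

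Of 8 tested cyclins and kinases that phosphorylate RB1, 3 were higher, 1 lower and 4 not called in C4-2 (median log2 0.44), and 3 were lower and 5 not called in 22Rv-1 (median -0.15). Over all genes 59.1% were called in C4-2 and 48% in 22Rv-1. Cyclin D1 (CCND1) rose 1.76-fold and cyclin A2 (CCNA2) 8.74-fold in C4-2, while cyclin D3 (CCND3) fell by 0.63 on the log2 scale (edgeR adjusted p = 3.96e-10, 5.31e-10 and 1.15e-06). In 22Rv-1, CDK4, CDK2 and CCND1 fell by 0.35, 0.29 and 0.14 (edgeR adjusted p = 3.88e-08, 0.000217 and 0.000391).

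Of 7 CDK inhibitors, which keep RB1 unphosphorylated, 2 were higher and 2 lower in C4-2 (median 0.20), and 3 higher and 2 lower in 22Rv-1 (median -0.04), against 29.6% higher and 29.5% lower over all genes in C4-2 and 23.9% and 24.1% in 22Rv-1. CDKN1A (p21) fell by 0.71 in C4-2 and rose by 0.32 in 22Rv-1 (edgeR adjusted p = 1.14e-07 and 0.00015). CDKN1B (p27) rose by 0.49 in 22Rv-1 (edgeR adjusted p = 6.94e-14) and was not called in C4-2. CDKN2D was lower in both, with log2 fold changes of -0.82 and -0.52 (edgeR adjusted p = 0.000356 and 5.19e-06). CDKN2C rose by 0.61 in C4-2 and fell by 0.36 in 22Rv-1 (edgeR adjusted p = 0.000544 and 0.000308).

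Of the DP genes, which encode the dimer partners, TFDP2 rose by 0.26 in C4-2 (edgeR adjusted p = 0.00136) and TFDP1 fell by 0.13 in 22Rv-1 (edgeR adjusted p = 0.023). The other of these genes was not called in each line. Of the 11 genes of E2F6-type polycomb complexes, 5 were lower and 6 not called in C4-2, with a median of -0.17, against 29.5% lower and 59.1% called over all genes. RYBP and RING1, subunits of those complexes, fell by 0.61 and 0.57 (edgeR adjusted p = 4.26e-08 and 1.68e-06), and E2F6 itself fell by 0.70. In 22Rv-1, 1 was higher, 3 lower and 7 not called (median -0.07), against 48% called over all genes.

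Of 8 corepressors of RB1, 1 was higher and 1 lower in C4-2 (median 0.09), and 1 higher and 5 lower in 22Rv-1 (median -0.16). The shares called over all genes were 59.1% and 48%, with 24.1% lower in 22Rv-1. The DNA methyltransferase DNMT1 fell by 0.69 in 22Rv-1 (edgeR adjusted p = 5.86e-21). Of 7 genes of the ligases that turn over E2F proteins, 3 were higher and 2 lower in C4-2 (median 0), and 1 higher and 3 lower in 22Rv-1 (median -0.09), against the same 59.1% and 48% over all genes. The ubiquitin ligase subunit SKP2 rose by 0.50 in C4-2 and fell by 0.19 in 22Rv-1 (edgeR adjusted p = 4.88e-06 and 0.0136). Its cofactor CKS1B rose by 0.59 and fell by 0.48 (edgeR adjusted p = 6e-06 and 1.81e-11).

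Of 7 cell death genes known as E2F1 targets, 2 were higher and 3 lower in C4-2 (median 0.06), where 29.6% of all genes were higher and 29.5% lower. In 22Rv-1, 1 was higher and 1 lower (median 0.16), where 23.9% and 24.1% of all genes were. TP73, a p53 relative, rose by 0.59 in C4-2 (edgeR adjusted p = 0.00242). The proapoptotic BH3 genes BBC3 and BCL2L11 fell by 1.75 and 0.67 (edgeR adjusted p = 8.2e-07 and 2.53e-07). TP73 also rose in 22Rv-1 shARv7 cells, by 0.55 (edgeR adjusted p = 0.000781). Of 7 germline genes that E2F6 complexes silence, 2 were tested in C4-2 and neither was called. In 22Rv-1, 4 were tested, of which STAG3 rose by 0.31 and MAEL and SMC1B fell by 0.57 and 0.20 (edgeR adjusted p = 0.00375, 0.0256 and 0.0356).

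**Figure D5:**
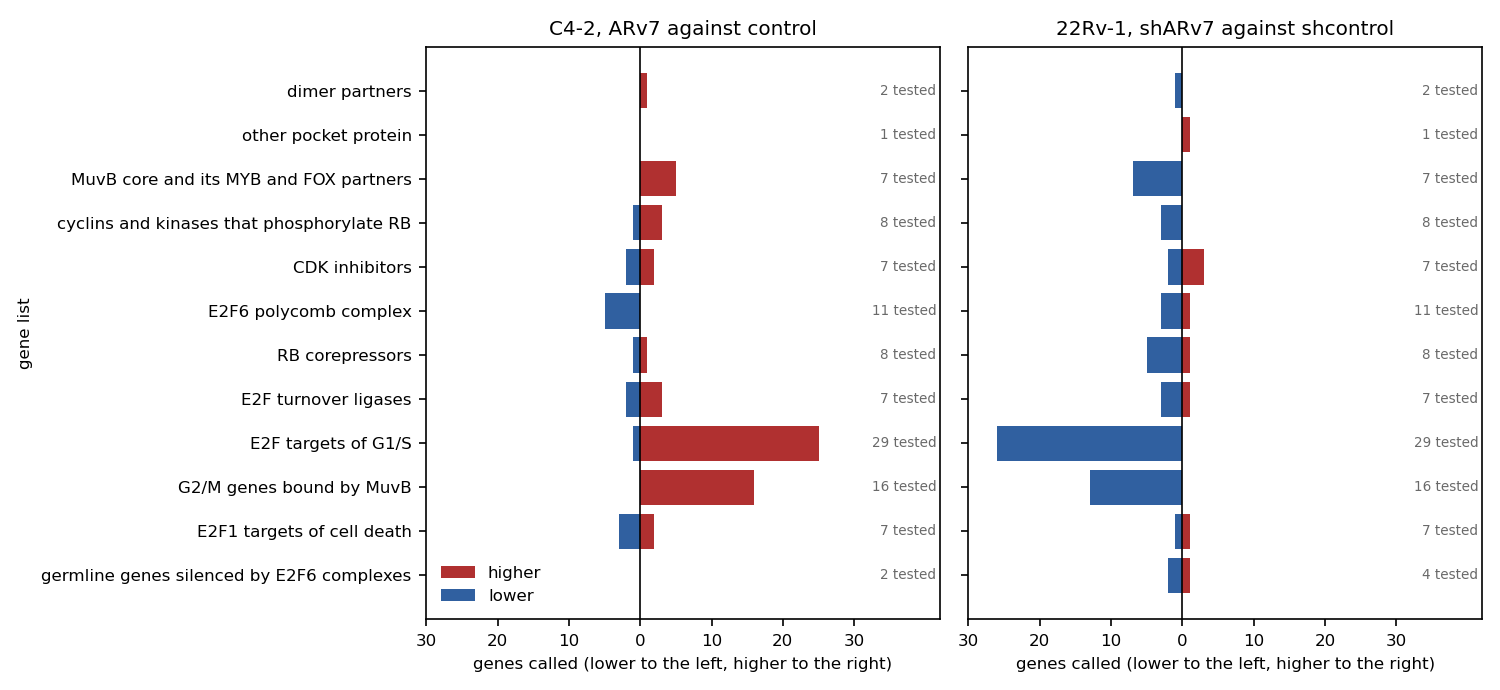
Number of genes called higher (red, to the right) and lower (blue, to the left) by edgeR at an adjusted p of 0.05 in each gene list (vertical axis), for C4-2 with ARv7 (left panel) and 22Rv-1 with shARv7 (right panel), with the number tested in grey. The G1/S targets stand at 25 higher in C4-2 and 26 lower in 22Rv-1 of 29, and the G2/M genes at 16 higher and 13 lower of 16. These counts are a description, and the lists share some genes.

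The genes most like each member over the 12 libraries were found by Pearson's r of log2 CPM among 11158 genes. The libraries fall into 4 groups and come from the same lines throughout, so r mostly follows the group means and is a description without a test. E2F1 was closest to FEN1, a flap endonuclease (r = 0.997), and near it was CHTF18, a clamp loader subunit (0.996). E2F2 was closest to the separase gene ESPL1 (0.999), followed by ZNF492 and the kinase gene WEE1 (both 0.996). E2F7 was closest to the mitotic kinase gene NEK2 (0.998), followed by IQGAP3 and the nuclease gene EME1 (both 0.997). E2F8 was closest to the kinesin gene KIFC1 (0.989), RPA3 and the replication factor MCM10 (both 0.988), and RBL1 to the kinase gene VRK1 (0.982). E2F3 was closest to LIFR (0.987), E2F4 to BOP1 (0.99) and E2F6 to TMEM267 (0.988). RB1 and E2F5 had the lowest best values, 0.941 with CCDC121 and 0.895 with ZNF461.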

How the data were processed

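RNA of 12 libraries was analysed from 1 deposited table of raw read counts per gene, whole numbers without normalization, and of FPKM, for which the authors divided the same counts by gene length and by the sum of counts in the library, as recomputing them from the deposited counts showed. Per the labels' protocols and the submitters' processing notes, reads were trimmed with Cutadapt 2.7. Aligner, counter and strand setting: not given in the sources used here. The notes name hg18, but 19805 of the 19876 gene identifiers found in GENCODE 29 had a start or end within 1000 bases of its GRCh38 positions, so coordinates are given as GRCh38. Of 19974 lines, 1 lacked a gene identifier and was left out.

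Within each line, counts were filtered with filterByExpr, normalised with TMM and tested with edgeR 4.0.16 (glmQLFit and glmQLFTest, Benjamini-Hochberg over all genes tested, threshold 0.05) in R 4.3.3. The contrasts between lines used 1 fit of all 12 libraries with 4 groups, so a member's fold change within a line and the quotient of its CPM levels, which use TMM over all libraries, differ slightly. Count ratios use total counts with an exact 95% interval. Class shares were tested with exact permutation tests. Named genes were all members, up to 3 genes per list with the smallest adjusted p and up to 2 called against their list, and the 3 genes most correlated with each member (log2 CPM, prior count 2, mean of at least 5 CPM). Not all of these are printed, and some results are not reported here. Alternatives were DESeq2 1.42.0, its size factors, total counts, no filter, a minimum mean of 5 CPM, the replicate number as a block, all 12 libraries in 1 fit, glmTreat with a fold of 1.2, and limma 3.58.1 on log2(FPKM + 1) for genes with a mean FPKM of 1 or more. Each library was also left out in turn. The procedure was tested on simulated data. The members and gene lists were chosen with earlier results of these data known.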

Additional observations from a re-analysis of the deposited data

Results flagged for a closer look

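For 8 of the 10 genes the response to more ARv7 differed between C4-2 and 22Rv-1 by edgeR's test of the difference itself. The log2 difference, C4-2 minus 22Rv-1, was 1.08 for E2F1, 3.52 for E2F2, 0.45 for E2F3, 4.54 for E2F7, 4.48 for E2F8 and 0.80 for RBL1. It was -0.30 for E2F4 and -0.88 for E2F6. The values for E2F2, E2F7 and E2F8 rest on 19, 15 and 4 counts in the C4-2 control libraries, and these genes passed the filter on low counts through the other groups, so they are a description. Of the other 7 genes, 5 differed. The E2F8 value was 8.08 without C4-2 control replicate 3, which holds its only control counts, and 0.45 by limma on log2(FPKM + 1). For E2F3, the C4-2 response was 0.39 while the 22Rv-1 libraries gave 0.05 for depletion with overlapping groups, and for E2F6 the C4-2 change of -0.70 stood beside -0.19 for depletion. Of all genes tested, 50.7% differed between the lines in this way.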

How the results depend on the processing

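Over 616 member values under alternatives, 596 kept their side of the threshold, 18 lost the call and 2 gained one; those lost were of E2F3, E2F4, E2F5 and RB1. Of the 475 values of called members 0 changed sign, and of the 141 of members not called 8 did: 2 of E2F5 and 2 of RB1 in C4-2, and 1 of E2F3 and 3 of RB1 in 22Rv-1. Calls over all genes in C4-2 numbered 7557 by edgeR and 7202 by DESeq2, and 6467 and 5881 in 22Rv-1. Tested against a fold of 1.2 they were 4661 and 2862, a stricter question by construction. Leaving out 1 library gave 6673 to 7870 in C4-2, 5793 to 6532 in 22Rv-1, 6752 to 7308 for the difference between lines and 11640 to 11842 between control cells. Limma on log2(FPKM + 1) called 65.6% of C4-2 calls and 68.3% of the difference calls higher, against 50% and 54%. It gave E2F7 a log2 change of 1.60 in C4-2, where the added 1 exceeds the control level, and did not test E2F2 and E2F8 there. Between control cells it gave 3.83, 3.52 and 2.02 for E2F2, E2F7 and E2F8.

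From counts without length scaling, the activator share was 26.7% and 44.0% in C4-2 control and ARv7 and 51.9% and 47.6% in shcontrol and shARv7 libraries. The share of E2F4 and E2F5 was 47.2% in C4-2 control, 24.9% in shcontrol and 31.4% in shARv7, that of E2F6 5.65% in shcontrol, and that of E2F7 and E2F8 7.00% in C4-2 ARv7, 17.5% in shcontrol and 14.5% in shARv7. The directions within each line were those by FPKM.

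With a replicate block, 7310 genes were called in C4-2, 6203 in 22Rv-1, 6863 for the difference and 11753 between control cells, and no call of a member changed. Libraries with the same number did not deviate together (correlations of -0.04, 0.03 and -0.06 in C4-2 and -0.09, 0 and -0.11 in 22Rv-1), so the numbers were not taken to pair them. Not every library correlated best with its own number.

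Depth limits E2F2, E2F7 and E2F8 in C4-2 control cells, where a count of 3 is 0.218 to 0.233 CPM. The class shares cannot pass 0.05 with 3 libraries a group.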
